A study of Rattus norvegicus with 6 samples.

Results

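Notch signalling genes were examined by RNA sequencing in INS-1 cells, a rat insulinoma line that makes and secretes insulin. The genes were the receptors Notch1, Notch2 and Notch3, the ligands Jag1, Jag2, Dll1 and Dll4, and the HES family genes Hes1, Hes6 and Hey1. They were picked out by gene symbol, as 10 of the 21553 genes named in the deposited count table, with earlier results of these data known. Counts were summed over all rows of a gene. INS-SMA cells (genotype SMA overexpression, n = 3 libraries) carried a lentivirus that expresses α-SMA, the actin of smooth muscle. INS-MOCK cells (genotype wild type, n = 3 libraries) were the controls, and the labels do not say whether they received a virus. Cells of both groups were grown in the same medium, and the sources used here name neither the promoter of the α-SMA gene nor the number of clones in the INS-SMA line. The series calls the libraries of a group biological replicates and does not say from which cultures they came.

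Notch receptors sit in the membrane of one cell and are activated by Jagged or Delta-like ligands on the next. Ligand binding exposes the receptor to the protease Adam10 and then to gamma-secretase, and the released intracellular part joins the DNA-binding protein Rbpj and a Mastermind coactivator to switch on targets such as Hes1 and Hey1. Hes1 and Hey1 are transcriptional repressors. In the developing pancreas Hes1 restrains Neurog3 and so the endocrine fate, while Hes6 is an HES family member that can act against Hes1.

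The INS-SMA libraries held 24719503 to 39608609 counts and the INS-MOCK libraries 34471794 to 37466920. Of these, 35.8% to 36.7% in INS-SMA and 32.7% to 33.0% in INS-MOCK lay in rows that name no gene and were not used. This unused share was larger in every INS-SMA library than in any INS-MOCK library. The human ACTA2 sequence was at 44302 to 56546 CPM (read counts relative to library size, scaled by the trimmed mean of M-values, TMM) in INS-SMA and at 4.62 to 7.14 CPM in INS-MOCK. Of 8 beta cell markers, 0 rose and 5 fell, namely Ins1, Ins2, Pdx1, Nkx6-1 and Chga, where 28.1% of all tested genes rose and 27.0% fell. The list summed to 2842 to 3847 CPM in INS-SMA and 31532 to 34389 CPM in INS-MOCK. The log2 fold changes were -3.93 for Ins1, -4.29 for Ins2, -1.06 for Pdx1, -1.37 for Nkx6-1 and -2.39 for Chga. Iapp (2.30), Mafa (-1.67) and Slc2a2 (-0.30) did not pass the test. Ins1 and Ins2 are near-identical, so the division of their reads is uncertain.

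The promoters of the Notch genes are shown first, because several of these genes are themselves described as targets of the Rbpj complex. RefSeq promoters of the GRCr8 build, each with 250 bases before and 50 bases from the transcription start site, matched 8 of the 10 genes, all but Hey1 and Dll4. They were searched on both strands for TGGGAA, the core that Rbpj binds, for the longer GTGGGAA, which contains that core, and for CACNAG, the N box that HES repressors bind. The sequences below run 5′ to 3′ along the strand of the gene, with each TGGGAA in capitals, or TTCCCA where the match lies on the other strand. Hes1 (chr11:84212996-84213295, minus strand) and Dll1 (chr1:64993225-64993524, minus strand) are shown because each holds 2 cores, and Notch1 (chr3:29721564-29721863, minus strand) as a gene that rose and holds 0.
Hes1: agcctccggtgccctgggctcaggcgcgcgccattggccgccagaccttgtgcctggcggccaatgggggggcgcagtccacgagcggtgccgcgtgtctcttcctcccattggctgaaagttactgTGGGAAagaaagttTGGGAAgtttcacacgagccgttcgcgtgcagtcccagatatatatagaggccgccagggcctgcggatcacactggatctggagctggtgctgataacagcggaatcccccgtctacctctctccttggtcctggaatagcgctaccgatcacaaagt
Dll1: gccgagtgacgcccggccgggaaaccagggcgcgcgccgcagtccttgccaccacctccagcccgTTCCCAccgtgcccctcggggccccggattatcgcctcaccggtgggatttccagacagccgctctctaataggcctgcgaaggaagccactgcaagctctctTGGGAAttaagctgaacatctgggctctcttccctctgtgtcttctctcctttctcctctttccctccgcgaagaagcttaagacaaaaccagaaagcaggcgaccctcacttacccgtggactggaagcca
Notch1: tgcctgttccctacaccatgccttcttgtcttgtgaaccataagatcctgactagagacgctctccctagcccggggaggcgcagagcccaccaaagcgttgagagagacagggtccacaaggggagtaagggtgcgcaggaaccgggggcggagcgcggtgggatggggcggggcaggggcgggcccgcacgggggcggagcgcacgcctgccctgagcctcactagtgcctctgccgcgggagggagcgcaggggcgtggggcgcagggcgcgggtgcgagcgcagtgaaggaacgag

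In Hes1 the cores begin 123 and 109 bases before the start site on the same strand, and the first is also a GTGGGAA. In Dll1 they begin 185 and 82 bases before it on opposite strands, and the match at 185 bases is also a GTGGGAA. Notch3 held 1 core, 43 bases into the transcript, and Notch2, Jag1, Jag2 and Hes6 held 0 (Jag2 in both of its promoters). At least 1 TGGGAA was present in 25.7% of all 33469 promoters of the same length and at least 2 in 3.85%. GTGGGAA was present in 6.29%. The N box was found at 4 places in Hes1, 4 in Notch1 (one pair of them overlapping), 2 in Hes6 and 1 in Notch3. At least 1 was present in 43.1% of all promoters and at least 2 in 11.2%. These matches describe the letters of the windows and are not binding sites.

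Of the 10 Notch genes 8 rose in INS-SMA and 0 fell at the 0.05 threshold on the adjusted p (edgeR's quasi-likelihood test over 13363 genes). Among all tested genes 28.1% were called higher and 27.0% lower, or 55.1% in either direction. With DESeq2, which called 33.0% of genes higher and 29.7% lower, 8 of the 10 rose and 1 (Notch2) fell. All 4 ligands and all 3 HES family genes rose, and so did 1 of the 3 receptors, Notch1. The median log2 fold change of the 10 genes was 1.71, against 0.03 for all tested genes. Because the 10 genes were chosen with earlier results of these data known, the counts and medians of this paragraph are a description. In 8 of the 10 genes each INS-SMA library was above each INS-MOCK library, and in 1, Notch2, each was below, where 33.5% and 31.9% of tested genes showed these patterns (65.3% together). In whole-culture RNA a change in the share of cells that express a gene and a change in the amount per cell cannot be told apart.

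**Figure D1:**
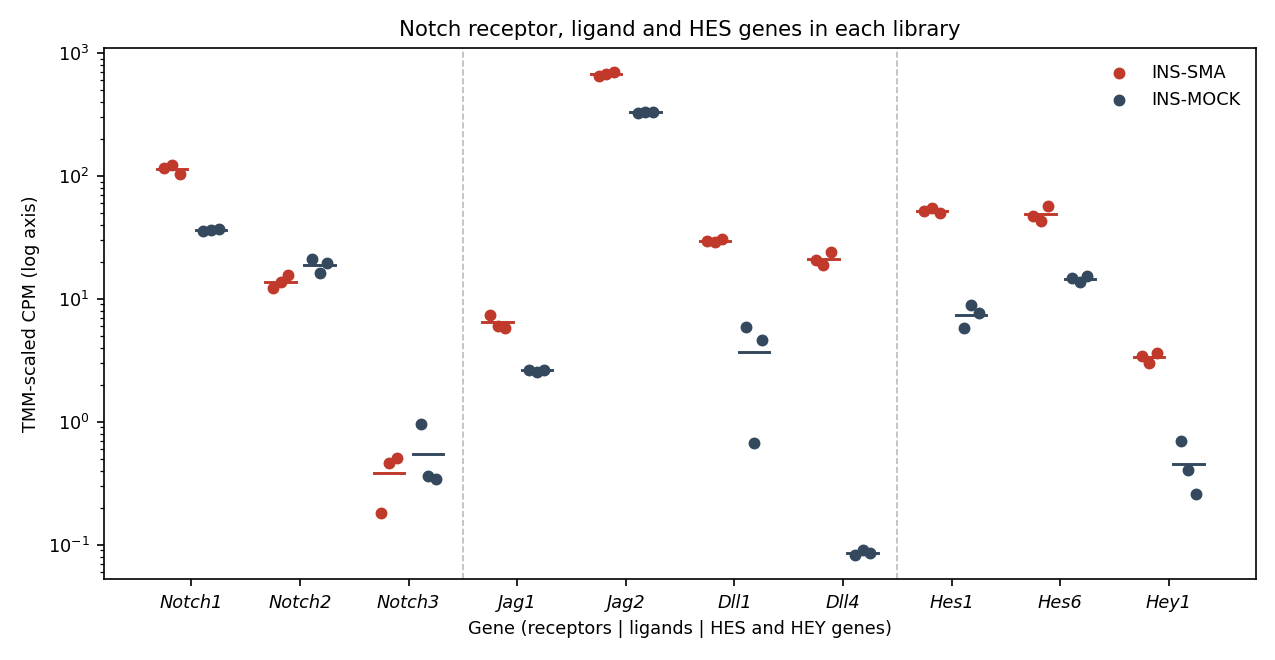
TMM-scaled CPM (log axis) of each Notch gene in the 3 INS-SMA libraries (red, left) and the 3 INS-MOCK libraries (dark, right), with a bar at each mean. Groups are separate in every gene but Notch3. INS-SMA lies higher in the 8 genes that rose and lower in Notch2.

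Among the receptors, Notch1 (ENSRNOG00000019322, chromosome 3, 3905453 to 3951025, minus strand in the deposited table) had 115, 124 and 104 CPM in INS-SMA libraries 1 to 3, against 35.6, 36.1 and 36.7 CPM in INS-MOCK libraries 1 to 3. Every INS-SMA library was far above every INS-MOCK library. The means differed by 3.17-fold, and the log2 fold change was 1.66 (SE 0.07, edgeR adjusted p = 2.53e-05). A second row of the gene held 192 counts in INS-SMA replicate 2 and 0 elsewhere, so nearly all counts came from 1 transcript row.

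Notch2 (chromosome 2, 200187179 to 200320215, plus strand), a receptor that binds the same ligands, had 12.3, 13.7 and 15.5 CPM in INS-SMA, against 20.9, 16.2 and 19.6 CPM in INS-MOCK. The groups did not overlap, but the highest INS-SMA library was close to the lowest INS-MOCK library. The log2 fold change of -0.45 (95% interval -0.83 to -0.07) did not pass, at an edgeR adjusted p of 0.0502. Over the alternatives the adjusted p ranged between 0.0162 (DESeq2) and 0.718. INS-MOCK replicate 1 drew 233 of its 507 counts from a second row that had 0 in every other library. In the most abundant row alone the log2 fold change was -0.12 (adjusted p = 0.718).

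Notch3 (chromosome 7, 14138495 to 14189688, minus strand), in mammals best known from vascular smooth muscle, was close to the detection limit. It had 3, 10 and 13 counts in INS-SMA, against 23, 8 and 8 in INS-MOCK, or 0.180, 0.459 and 0.506 CPM against 0.950, 0.359 and 0.342 CPM. The groups overlapped, and the log2 fold change was -0.50 (95% interval -1.99 to 0.99, edgeR adjusted p = 0.523). Without INS-MOCK replicate 1 it was 0.14. At this depth no difference in Notch3 was detectable, and the interval covers a change in either direction.

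Among the ligands, Dll4 (ENSRNOG00000014011, chromosome 3, 111135021 to 111145986, plus strand), a Delta-like ligand best known from sprouting blood vessels, showed the largest rise of the 10 genes. It had 342, 407 and 613 counts in INS-SMA, against 2, 2 and 2 in INS-MOCK. On the scaled level these were 20.5, 18.7 and 23.8 CPM against 0.0826, 0.0896 and 0.0855 CPM, so a gene just above 0 in INS-MOCK was measured well in every INS-SMA library. The log2 fold change was 7.85 (SE 0.20, edgeR adjusted p = 5.95e-06), and 0.876% of tested genes had a larger one. This SE is too small, because the 3 INS-MOCK libraries together held only 6 counts. Pooled over libraries, 1362 counts against 6 gave a ratio of 247 (exact 95% interval 113 to 675, for counting error only). Dll4 passed the low-count filter through its INS-SMA libraries alone, and each INS-MOCK library lay below 3 counts. The size, adjusted p and rank of its rise are therefore given as a description.

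Dll4 had 2 rows in the table. The first held 183, 148 and 426 counts in INS-SMA, and 2 in each INS-MOCK library. The second held 159, 259 and 187 counts in INS-SMA, and 0 in each INS-MOCK library. Both rows were therefore absent or nearly so in INS-MOCK, and in the most abundant row alone the log2 fold change was 7.03 (adjusted p = 2.55e-04). Because Dll4 is an endothelial gene in many tissues, 8 endothelial markers were read beside it. Of these, 5 were among the named rows, and they summed to 1.56 to 2.39 CPM in INS-SMA and 1.45 to 2.82 CPM in INS-MOCK. Cdh5 was at 0.240, 0.0918 and 0 CPM in INS-SMA and at 0 in INS-MOCK, while Emcn was at 0.300, 0.275 and 0.117 CPM in INS-SMA and at 0 in INS-MOCK. Tek was at 0.240, 0.826 and 1.24 CPM in INS-SMA and at 0, 0.134 and 0 CPM in INS-MOCK. Vwf, the only marker of the list that was tested, was at 0.781, 1.19 and 0.622 CPM in INS-SMA and at 1.82, 2.47 and 1.24 CPM in INS-MOCK, and its log2 fold change of -1.08 did not pass (edgeR adjusted p = 0.0623). Kdr was at 0, 0 and 0.194 CPM in INS-SMA and at 0, 0.224 and 0.214 CPM in INS-MOCK. Their part in the rise of Dll4 was not tested.

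Dll1 (ENSRNOG00000059984, chromosome 1, 57318708 to 57327379, minus strand), the ligand of endocrine progenitors in the mouse pancreas, had 29.7, 28.8 and 30.6 CPM in INS-SMA, against 5.86, 0.672 and 4.62 CPM in INS-MOCK. The INS-SMA libraries agreed closely, whereas INS-MOCK replicate 2, with 15 counts, lay far below the other INS-MOCK libraries with 142 and 108. The coefficient of variation was 3.03% in INS-SMA and 72.9% in INS-MOCK. The means differed by 7.99-fold, and the log2 fold change was 2.99 (SE 0.75, edgeR adjusted p = 0.0183). It was 2.50 (adjusted p = 4.81e-04) without INS-MOCK replicate 2, and 3.18 (adjusted p = 0.0524) without INS-MOCK replicate 3, the 1 alternative that ended the call in a range of 3.95e-06 to 0.0524. With DESeq2 the adjusted p was 3.95e-06.

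The Jagged ligands rose less. Jag2 (ENSRNOG00000013927, chromosome 6, 137711155 to 137733026, minus strand) had 649, 678 and 697 CPM in INS-SMA, against 327, 329 and 332 CPM in INS-MOCK. Each group was tight, with a coefficient of variation of 3.55% in INS-SMA and 0.790% in INS-MOCK, and the groups were far apart. The log2 fold change was 1.04 (SE 0.04, edgeR adjusted p = 1.23e-05). Its first row held 51.6% to 59.5% of the counts in INS-SMA and 47.8% to 54.4% in INS-MOCK, so both rows rose and their shares overlapped between groups.

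Jag1 (ENSRNOG00000007443, chromosome 3, 130079361 to 130114770, minus strand), the ligand whose human gene is mutated in Alagille syndrome, had 7.45, 6.01 and 5.79 CPM in INS-SMA, against 2.64, 2.55 and 2.65 CPM in INS-MOCK. The counts behind these were modest, 124, 131 and 149 in INS-SMA, against 64, 57 and 62 in INS-MOCK. Groups did not overlap, and the log2 fold change was 1.29 (SE 0.18, edgeR adjusted p = 0.00197).

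**Figure D2:**
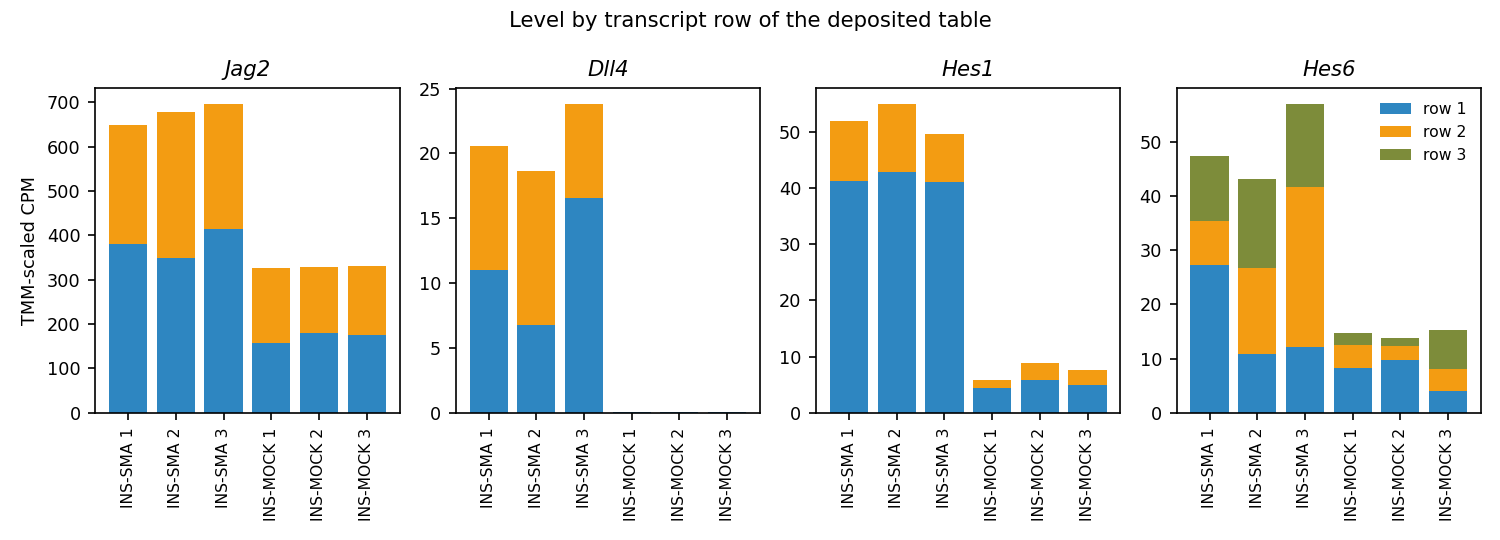
TMM-scaled CPM of Jag2, Dll4, Hes1 and Hes6 in each library, INS-SMA left of INS-MOCK, stacked by the transcript rows of the deposited table (row 1 has the most counts). The total of each gene is higher in all 3 INS-SMA libraries, while the rows of Hes6 take different shares from library to library.

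Among the HES family genes, Hes1 (ENSRNOG00000001720, chromosome 11, 74312806 to 74315248, minus strand), the repressor most often used as a Notch readout, had 52.0, 55.0 and 49.6 CPM in INS-SMA, against 5.74, 8.87 and 7.65 CPM in INS-MOCK. The lowest INS-SMA library was several times the highest INS-MOCK library. The log2 fold change was 2.81 (SE 0.18, edgeR adjusted p = 8.41e-05). Both of its rows rose: the first held 686, 933 and 1056 counts in INS-SMA and 107, 128 and 116 in INS-MOCK, and the second 179, 265 and 220 in INS-SMA and 32, 70 and 63 in INS-MOCK. The promoter of this gene holds the TGGGAA pair printed above, and the part of that pair in the rise was not tested.

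Hey1 (ENSRNOG00000011593, chromosome 2, 95320283 to 95322696, plus strand), a related repressor, had 3.42, 3.03 and 3.62 CPM in INS-SMA, against 0.702, 0.403 and 0.256 CPM in INS-MOCK. These rested on 57, 66 and 93 counts in INS-SMA, against 17, 9 and 6 in INS-MOCK, so its fold is less precise than that of Hes1. The log2 fold change was 2.87 (SE 0.41, edgeR adjusted p = 0.00203). Only 1 INS-MOCK library of Hey1 reached the low-count cutoff, against all 3 of INS-SMA.

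Hes6 (ENSRNOG00000020194, chromosome 9, 98549705 to 98551438, minus strand) had 47.5, 43.2 and 57.1 CPM in INS-SMA, against 14.7, 13.7 and 15.2 CPM in INS-MOCK. The summed level separated the groups cleanly, and the log2 fold change was 1.76 (SE 0.13, edgeR adjusted p = 1.29e-04). Its 3 rows did not share the counts evenly. The row with the most counts took 57.5%, 25.3% and 21.3% of the gene in INS-SMA, against 56.0%, 70.6% and 26.7% in INS-MOCK. In that row alone the log2 fold change was 1.25 and did not pass (adjusted p = 0.105). The call for Hes6 therefore rests on the sum of its rows.

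**Figure D3:**
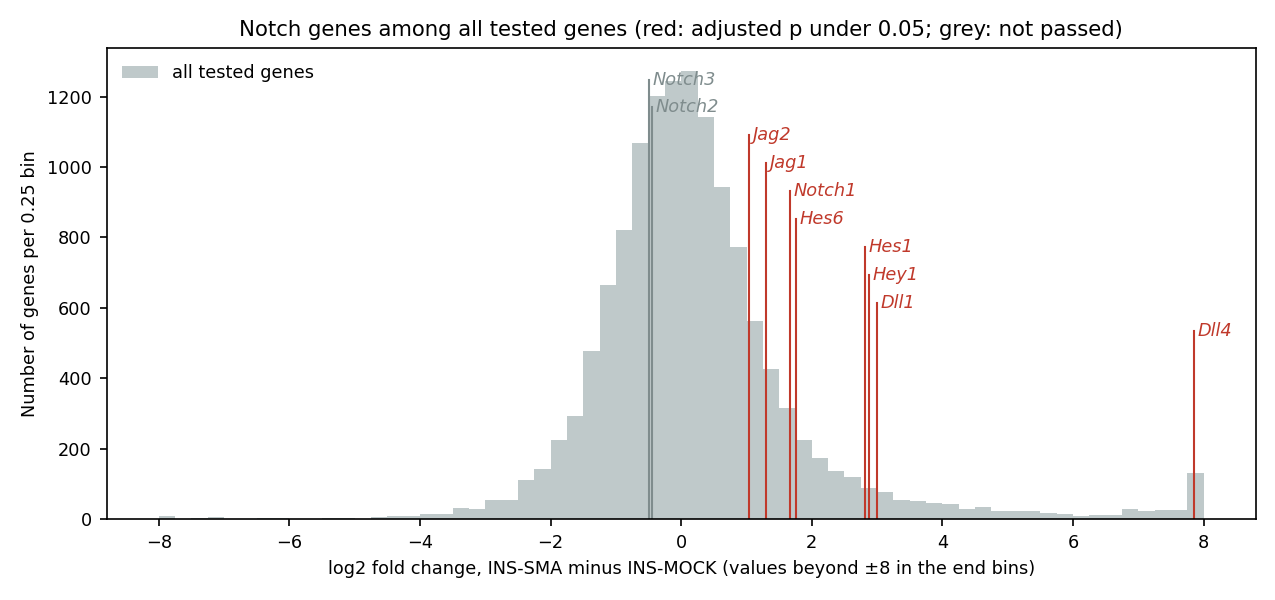
Histogram of log2 fold changes, INS-SMA minus INS-MOCK, of all 13363 tested genes (bins of 0.25), with a line for each Notch gene (its height only separates the names). The 8 genes that rose lie from 1.04 (Jag2) to 7.85 (Dll4), while Notch2 and Notch3 lie left of 0.

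The rest of the Notch pathway did not move in 1 direction. A list of 60 other pathway genes had 49 among the named rows and 41 tested, of which 14 rose and 11 fell. These are 34.1% and 26.8% of the tested list, near the 28.1% and 27.0% of all genes. The median log2 fold change was 0.30, with Maml2 at its bound as well. As the table names only part of the reads by gene, an absent or low gene here is not shown to be unexpressed.

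Of other ligands, Dll3, an atypical Delta-like protein, had 9, 10 and 11 counts in INS-SMA, against 0, 2 and 0 in INS-MOCK. Pooled over libraries the ratio was 16.3 (exact 95% interval 4.15 to 141, for counting error only). Like Dll4, Dll3 passed the low-count filter through its INS-SMA libraries alone. Its log2 fold change was 3.80 (edgeR adjusted p = 0.0155). Without INS-MOCK replicate 2 no INS-MOCK count remained, and Dll3 was at least 3.77-fold higher in INS-SMA against a floor of 3 counts per library. Dner, an atypical neuronal Notch ligand, fell, with 19.3 ± 0.54 CPM in INS-SMA and 40.9 ± 3.13 CPM in INS-MOCK (SD, n = 3 each). Among 4 genes of ligand endocytosis, which lets a ligand pull on its receptor, the ubiquitin ligase gene Neurl1 rose, with 286 ± 11.8 CPM in INS-SMA and 136 ± 3.08 CPM in INS-MOCK. In its most abundant row alone its log2 fold change of 1.07 was 2.10 and did not pass (adjusted p = 0.396). Mib1, which acts in the same step, was at -0.45 on the log2 scale with an edgeR adjusted p of 0.0466, which 9 of 16 alternatives moved past the threshold (range 0.00397 to 0.092).

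Genes that glycosylate or cut the receptor changed in both directions, where 28.1% of all tested genes rose and 27.0% fell. Of 5 glycosylation genes 3 fell and 1 rose: Pofut1, the O-fucosyltransferase that Notch needs for ligand binding, fell by 1.39 on the log2 scale, and the fringe gene Mfng rose by 0.37. Of 8 tested cleavage genes 2 fell and 1 rose. Ncstn, the gamma-secretase subunit nicastrin, was at 111 ± 2.71 CPM in INS-SMA and 229 ± 9.00 CPM in INS-MOCK, or -1.04 on the log2 scale (edgeR adjusted p = 1.91e-05). Adam17, a sheddase, rose by 0.42, a call lost in its most abundant row (adjusted p = 0.46).

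In the nucleus, the Rbpj gene could not be tested: its named row held 66.1, 0 and 0.233 CPM in INS-SMA and 0, 0 and 0.214 CPM in INS-MOCK, so 1 library carried almost all of it. Rbpj was named here after its values were seen. Of the coactivators, the Mastermind gene Maml2 was at 1.73 ± 0.32 CPM in INS-SMA and had no count in INS-MOCK, so it was at least 13.4-fold higher against a floor of 3 counts per library. It too passed the low-count filter through INS-SMA alone. Snw1 rose by 0.35. Of 7 tested corepressor genes 2 rose and 2 fell, where 28.1% of all tested genes rose and 27.0% fell. Hdac1, a histone deacetylase, was at 181 ± 6.56 CPM in INS-SMA and 425 ± 7.19 CPM in INS-MOCK. Tle3, a Groucho family corepressor that HES proteins recruit, was at 326 ± 9.93 CPM in INS-SMA and 145 ± 7.77 CPM in INS-MOCK. In its most abundant row alone the adjusted p of Tle3 was 0.259.

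Of 7 tested genes of receptor turnover 4 rose and 1 fell, where 28.1% of all tested genes rose and 27.0% fell. So few genes do not describe this step as a whole. Dtx3, a Deltex family ubiquitin ligase, rose by 0.35, and Numbl, a relative of the Notch inhibitor Numb, fell by 0.54 on the log2 scale. In the most abundant row of Numbl the log2 fold change was -1.33 (adjusted p = 0.0565). Of 9 other reported target genes only 2 were tested: Myc rose by 1.52 (edgeR adjusted p = 5.75e-04), and Nrarp, a direct target and feedback inhibitor of Notch, named here after its values were seen, had 5.41, 2.71 and 4.28 CPM in INS-SMA, against 5.00, 3.90 and 4.44 CPM in INS-MOCK. Nrarp did not pass the test, with overlapping groups and a log2 fold change of -0.11. Of 5 proneural genes opposed by HES proteins 2 were tested, and 1 of these is not reported here. Neurod1, a beta cell transcription factor, fell and was at 239 ± 18.6 CPM in INS-SMA and 596 ± 27.2 CPM in INS-MOCK. This 1 gene does not give the direction of the group.

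**Figure D4:**
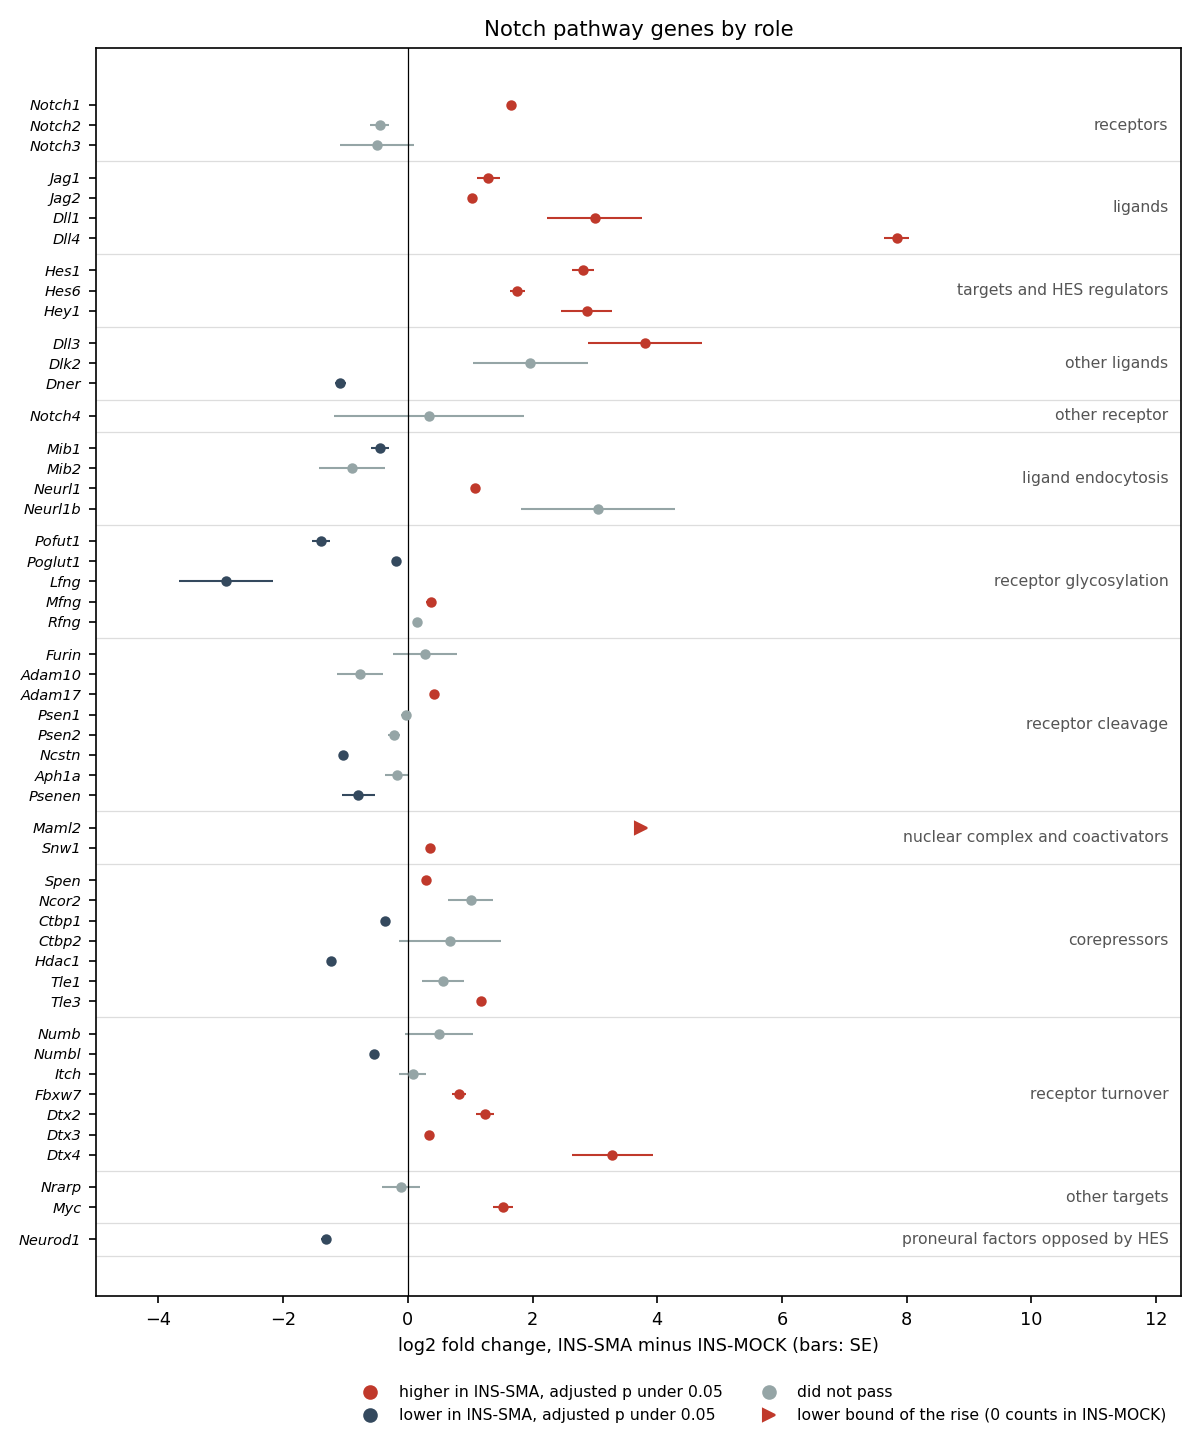
Log2 fold changes, INS-SMA minus INS-MOCK, of the 10 Notch genes and 40 of the 41 other tested pathway genes, grouped by role. Bars are 1 SE, which is too short for Dll4 with its 6 INS-MOCK counts, and the triangle is a lower bound. All points of the ligands and of the targets and HES regulators are red (higher). The nuclear complex and coactivators show only 2 points, both red, from a list of 7 genes of which 4 had no row. Other ligands, ligand endocytosis, glycosylation, cleavage, corepressors and receptor turnover each hold red, dark (lower) and grey (not passed) points.

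By the highest Pearson correlation of log2 CPM over the 6 libraries, the genes most like Hes1 were Kat8, Nr1d1 and Usp24 (r = 0.9996, 0.9996 and 0.9995). Those most like Notch1 were Phrf1, Ptp4a2 and Adam17 (r = 0.9998, 0.9996 and 0.9996). With libraries in 2 groups such values mostly reflect the separation of the groups: 418 of 9355 genes of at least 5 CPM had r over 0.99 with Hes1, and 677 with Notch1. They are given as a description.

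Markers of other cell types were read beside these results. Of 9 smooth muscle and fibroblast markers 8 had rows, summing to 5.83 to 7.31 CPM in INS-SMA and 2.82 to 4.26 CPM in INS-MOCK, and of 7 immune markers 4 had rows, summing to 3.49 to 4.27 CPM in INS-SMA and 0.743 to 2.51 CPM in INS-MOCK. Of 6 duct markers 5 had rows, summing to 20.2 to 22.2 CPM in INS-SMA and 17.3 to 28.3 CPM in INS-MOCK. Tested were 2 smooth muscle and fibroblast, 4 immune and 4 duct markers. Among them Myh11, Ptprc, Cftr and Muc1 rose, while Krt7 and Sox9 fell, where 28.1% of all tested genes rose and 27.0% fell. The log2 fold changes of Tagln (-0.26), Cd68 (-0.82), Adgre1 (3.22) and Csf1r (0.24) did not pass. Ptprc had 31, 34 and 29 counts in INS-SMA and Cftr 143, 202 and 182. Both had 0 counts in every INS-MOCK library, so they passed the low-count filter through INS-SMA alone and no fold is given. The part of these markers in the Notch results was not tested.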

How the data were processed

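RNA of 3 INS-SMA and 3 INS-MOCK libraries was sequenced. The authors deposited 1 table of raw counts per transcript row, 1 column per library and without pooling. The submitters' processing notes name HISAT, HISAT2 and DESeq2, and the builds rn6 and hg19, with no roles. How rows were counted, on which strand and from which annotation is not given in the sources used here, so antisense reads cannot be separated. Coordinates are those of the deposited table.

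Of 101905 rows, 66301 name no gene and were left out; reads of a gene in such rows are missing from its value. Counts were summed per gene. edgeR 4.0.16 (R 4.3.3) with filterByExpr, TMM factors and group as the only term gave quasi-likelihood p-values, adjusted by Benjamini-Hochberg over 13363 genes. SE is the log2 fold change divided by the square root of F, and it can be too small where a group holds few counts. The steps were tested on simulated data, in which 100 genes changed by 1 and 100 by 2 on the log2 scale. Of these, 24% and 75% were recovered, with 3 false calls. DESeq2 1.42.0, other scalings, filters and rows, and leaving out each library were alternatives.

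All 10 Notch genes were named, and at most 2 per pathway role, those with the smallest adjusted p; others are marked. One gene that this rule names is not reported here. The genes and lists were chosen with earlier results of these data known. Replicates of a group differed beyond counting noise (46.2 to 59.7 chi-square units per degree of freedom). P-values set the difference between groups against the spread between libraries of a group. The sources used here do not say whether that spread covers separately made lines.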

Additional observations from a re-analysis of the deposited data

How the results depend on the processing

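The count of 8 Notch genes that rose was 8 in 14 of 16 alternatives and 7 in 2 (the most abundant row of each gene, and without INS-MOCK replicate 3); leaving out single libraries gave 7 to 8. The count of Notch genes that fell was 0, and 1 (Notch2) with DESeq2, with upper-quartile factors, with the strict low-count filter and without human ACTA2, and 0 to 1 without single libraries. For Notch2 the log2 fold change and adjusted p were -0.42 and 0.0162 with DESeq2, -0.47 and 0.0388 with upper-quartile factors, -0.44 and 0.049 with the strict filter, -0.45 and 0.0499 without ACTA2, -0.54 and 0.0479 without INS-SMA replicate 3, and -0.56 and 0.0288 without INS-MOCK replicate 2. Notch3 turned to 0.14 without INS-MOCK replicate 1, which holds 23 of its 39 INS-MOCK counts, lay between -0.76 and 0.14 over all single libraries left out, and was untested under the strict filter. Other pathway genes that fell numbered 11, and 7 in the most abundant row, where 40 were tested; the cause was not tested. Of 429 comparisons of single genes with an alternative, 403 kept direction and side of the threshold. No scaling moved the median of all genes by over 0.1 on the log2 scale (most 0.09, without factors).

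Replicate numbers are not said to mark a shared batch, and same-numbered libraries did not deviate together (correlations -0.03, -0.01 and -0.03). With the replicate number as a block, 8 Notch genes rose and 0 fell, and 12 other pathway genes rose and 8 fell; Dll3 and Mib1 lost their calls, among others (adjusted p 0.0651 and 0.0725), and 3138 genes were higher and 3156 lower. Adding overlapping unnamed rows to a gene and comparing receptors per length were not run, because coordinates of unnamed rows and transcript lengths were not analysed here. In INS-MOCK 3 counts equal 0.124 to 0.134 CPM; Dll3 and Dll4 lay below this, at 0 to 2 counts per library, and Notch3 and Hey1 rested on 6 to 23.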
